A study of Mus musculus with 60 samples.

Results

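The striatum was compared with the prefrontal cortex in wild-type mice, gene by gene, on 20 of the 60 RNA-seq libraries of the series: 10 from striatum and 10 from prefrontal cortex. The members are all libraries labelled wild type for these regions. The mice carried the intact adhesion receptor gene Adgrl3, named Lphn3 in the labels (+/+, WT), and were killed between postnatal days 65 and 76. The protocols name 12 mice per genotype, and hippocampus, prefrontal cortex and striatum were microdissected from frozen brains. The other genotype of the series lacks Adgrl3 (-/-, KO). Its 10 striatum and 10 prefrontal libraries are used below for the same contrast in other mice. WT hippocampus values are given beside some genes. The labels do not state strain, sex, litter or sequencing batch.

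The striatum is the input nucleus of the basal ganglia. Nearly all of its neurons are GABAergic medium spiny projection neurons. A direct pathway type has D1 dopamine receptors, substance P and dynorphin. An indirect pathway type has D2 dopamine receptors, the adenosine receptor Adora2a and enkephalin. Signalling in these neurons runs through G proteins such as Golf, adenylyl cyclase and the phosphodiesterases. A sparse set of large cholinergic interneurons lies among them. The prefrontal cortex is layered and built mostly of glutamatergic pyramidal neurons, with several classes of GABAergic interneurons. Myelinated fibre bundles of the internal capsule run through the striatum, whose medial border is the wall of the lateral ventricle.

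Each WT library held 39784183 to 50566119 counted reads, and mitochondrial transcripts took 7.53% ± 0.41 (SD, n = 10) of them in striatum and 6.79% ± 0.46 in prefrontal cortex. Levels are given as CPM, read counts scaled to the size of the library. The leading principal component of the 2000 most variable genes held 86.7% of the variance and separated the regions. Several striatum libraries stood apart within their group. Replicates 3, 5 and 6 had a summed level of the 11 thalamus markers of 447, 458.8 and 429.3 CPM, against 167.6 to 198.1 CPM in the other 7. Their Prkcd levels, a protein kinase C strongly expressed in thalamic relay neurons, were 112 to 123 CPM against 10.7 to 15.5 CPM. The 14 markers of ependyma and choroid plexus, the epithelia of the ventricles, summed to between 47.32 CPM (replicate 2) and 1369 CPM (replicate 6) in striatum. In prefrontal cortex the olfactory bulb markers ranged from 116.9 CPM (replicate 7) to 303 CPM (replicate 1). List counts below that change without striatum replicates 3, 5 and 6 are given both ways.

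Of 15513 genes tested, 1700 (11%) differed at least 2-fold with an adjusted p below 0.05 (edgeR quasi-likelihood test, Benjamini-Hochberg adjustment). Of these, 1012 (6.52%) were higher in striatum and 688 (4.43%) lower; without striatum replicates 3, 5 and 6 the counts were 971 and 732. Such genes are referred to as called. At the extremes, 135 genes were at least 8-fold higher in striatum and 29 at least 8-fold lower. Without a minimum fold 11013 genes (71%) passed the adjusted p, 5607 of them higher (36.1%) and 5406 lower (34.8%). In 5234 genes (33.7%) the levels of the 10 striatum libraries did not overlap those of the 10 prefrontal libraries, with 2727 (17.6%) above and 2507 (16.2%) below. The list counts below, and statements that groups did not overlap, are to be read beside these shares of all tested genes. The median log2 difference of all tested genes was 0.0059. In tissue samples such as these, fewer cells of a type and less RNA per cell cannot be told apart. The labels number the libraries 1 to 10 in both regions but do not say that a number is 1 mouse, so p-values measure the spread between these samples.

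**Figure D1:**
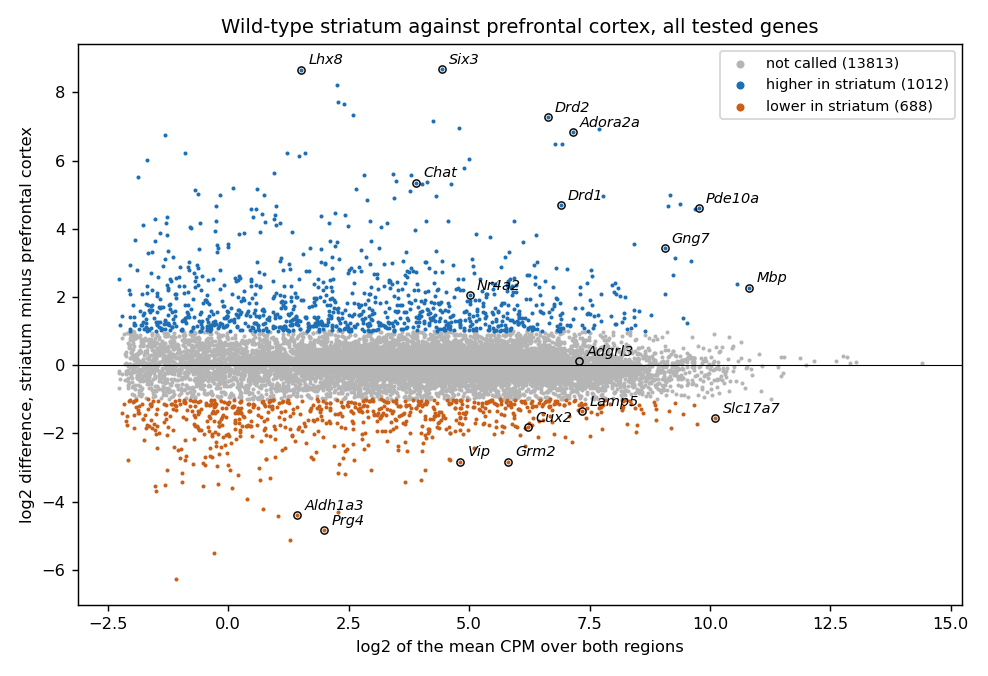
Each point is 1 of 15513 tested genes, with the log2 of its mean CPM over both regions on the x axis and the log2 difference, striatum minus prefrontal cortex, on the y axis. Blue marks the 1012 genes called higher in striatum, orange the 688 called lower and grey the rest, and the circled genes are named in the text; the blue points reach further from 0 than the orange.

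The region labels were checked on 4 markers. Gng7 (chromosome 10, 80948624 to 81014945, GRCm38), the G protein gamma subunit that pairs with Golf, had a lowest, median and highest level of 847, 959 and 1203 CPM in striatum and 86.4, 89.9 and 101 CPM in prefrontal cortex. The groups did not overlap, and the log2 difference was 3.42 ± 0.06 (SE; edgeR adjusted p = 2.08e-23). Chat (chromosome 14, 32408203 to 32465909), the enzyme that makes acetylcholine, ranged from 25.4 to 39.6 CPM in striatum, with a median of 27.9, and from 0.374 to 1.23 CPM in prefrontal cortex, with a median of 0.687 (log2 difference 5.34 ± 0.12; edgeR adjusted p = 7.86e-21). Lamp5 (chromosome 2, 136052239 to 136069917), found in upper-layer cortical neurons and neurogliaform interneurons, ran from 82.0 to 104 CPM in striatum (median 91.5) and from 199 to 277 CPM in prefrontal cortex (median 233), a log2 difference of -1.36 ± 0.05 (edgeR adjusted p = 2.37e-16). Cux2 (chromosome 5, 121856366 to 122050102), an upper-layer transcription factor, ran from 23.6 to 38.5 CPM (median 33.8) and from 95.2 to 134 CPM (median 119), a log2 difference of -1.82 ± 0.07 (edgeR adjusted p = 3.78e-16). All 4 markers lay on the side of their label in every library, and none was at 0 in the other region. Adgrl3 itself was near equal, with 144, 164 and 176 CPM in striatum and 126, 150 and 172 CPM in prefrontal cortex as lowest, median and highest levels. Its log2 difference was 0.13 ± 0.05 (edgeR adjusted p = 0.0378), short of the 2-fold limit.

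**Figure D2:**
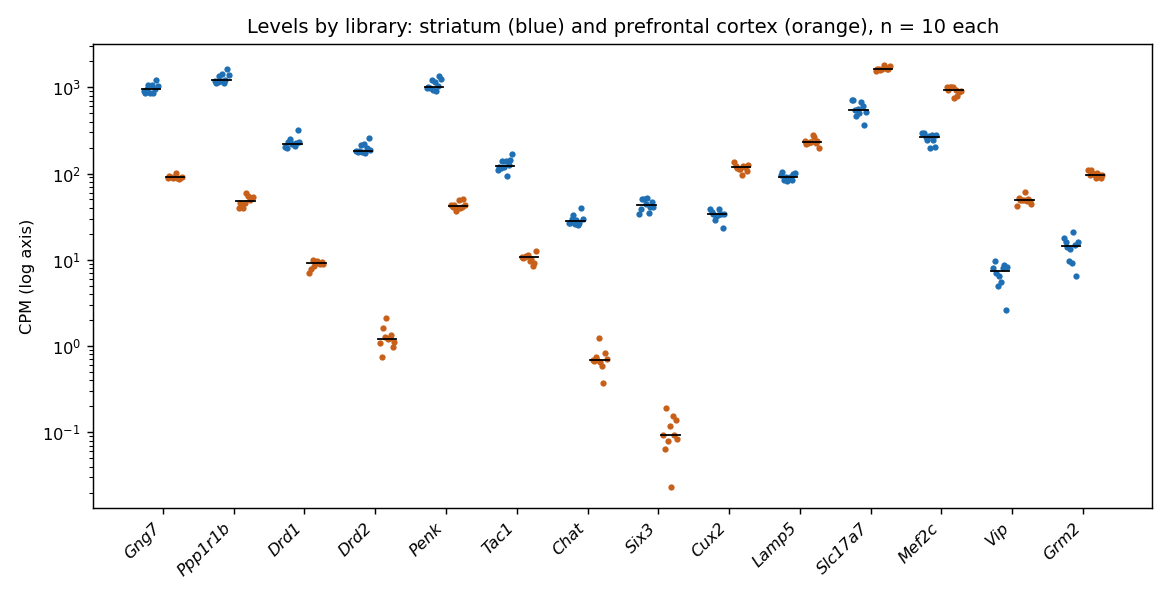
Levels of 14 genes in each of the 20 WT libraries, in CPM on a log axis, with striatum in blue, prefrontal cortex in orange and a bar at each median (n = 10 per region). For every gene shown the 10 libraries of a region lie on the same side of the 10 of the other, with the widest gap for Six3.

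Signalling genes of medium spiny neurons were higher in striatum or not called. Of 24 genes for striatal G protein and cyclic nucleotide signalling, 16 were higher in striatum, 0 were lower and 8 were not called, with a median log2 difference of 2.16 against 0.0059 for all genes. Without striatum replicates 3, 5 and 6 the median of this list was 1.85, with the same 16 and 0 as counts. Pde10a, the phosphodiesterase that breaks down cAMP and cGMP in these neurons, had 1436, 1631 and 2195 CPM as lowest, median and highest level in striatum and 46.4, 66.5 and 97.0 CPM in prefrontal cortex (log2 difference 4.61 ± 0.12). Ppp1r1b, which encodes the dopamine-regulated phosphatase inhibitor DARPP-32, ran from 1112 to 1636 CPM in striatum and from 39.5 to 59.5 CPM in prefrontal cortex (4.72 ± 0.09). Rgs9, a GTPase-activating protein, differed by 4.97 ± 0.07. The groups did not overlap for any of these 3 genes. Gnal, the Golf alpha subunit, differed by 2.08 ± 0.05, and Adcy5, the adenylyl cyclase it drives, by 3.05 ± 0.06 on the log2 scale. Not called were, among others, the phosphodiesterase Pde2a (0.42 ± 0.05), the kinase C isoform Prkcb (0.22 ± 0.05) and the guanylyl cyclase subunit Gucy1b3 (-0.02 ± 0.04). Prkcd was called in this list at 2.93 ± 0.56, and at 2.21 ± 0.50 with the replicate block. Without striatum replicates 3, 5 and 6, where it was high together with the other thalamus markers, the log2 difference was 1.21 ± 0.08 (edgeR adjusted p = 1.98e-11).

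Genes of both projection pathways were higher in striatum. Of 9 direct pathway genes 7 were called higher and 0 lower, with a median of 2.32. Of 7 indirect pathway genes 6 were called higher and 0 lower, with a median of 4.98. Drd1, the D1 receptor, had a lowest, median and highest level of 197, 222 and 317 CPM in striatum and 7.01, 9.06 and 9.92 CPM in prefrontal cortex (log2 difference 4.69 ± 0.08; edgeR adjusted p = 1.30e-22). Drd2 (chromosome 9, 49340627 to 49408177), the D2 receptor, had 173, 185 and 255 CPM against 0.748, 1.22 and 2.11 CPM (7.27 ± 0.12; adjusted p = 8.08e-23, edgeR). Drd1 was detected in prefrontal cortex in all 10 libraries, 3951 reads in sum, against 565 reads for Drd2. Penk, the enkephalin precursor, ran from 915 to 1336 CPM in striatum and from 37.2 to 50.6 CPM in prefrontal cortex (4.65 ± 0.08). Tac1, the precursor of substance P, ran from 94.0 to 167 CPM and from 8.40 to 12.7 CPM (3.60 ± 0.09). Pdyn, the dynorphin precursor, ran from 83.0 to 111 CPM in striatum and from 24.5 to 39.6 CPM in prefrontal cortex (1.65 ± 0.07). Adora2a differed by 6.82 ± 0.10 and the constitutively active receptor Gpr6 by 5.79 ± 0.13. The members not called were Sfxn1 (0.31 ± 0.06), a mitochondrial serine carrier, Eya1 (0.10 ± 0.06), a transcriptional coactivator, and the kainate receptor subunit Grik3 (0.45 ± 0.03).

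Striatal transcription factors were higher in striatum or not called. Of 22 tested striatal factors 14 were higher in striatum and 0 lower, with a median of 1.99. Six3 (chromosome 17, 85613608 to 85629302), a homeobox factor of the ventral forebrain and of D2 neurons, had the largest log2 difference among called genes with at least 5 CPM in the higher region, 8.67 ± 0.14. It had 34.2, 42.8 and 51.9 CPM as lowest, median and highest level in striatum, and 46 reads in sum over the 10 prefrontal libraries. Rarb, a retinoic acid receptor, differed by 3.31 ± 0.07 and its dimer partner Rxrg by 4.22 ± 0.11. Bcl11b (2.42 ± 0.06), Foxp1 (1.51 ± 0.05) and Foxp2 (2.69 ± 0.05), which shape medium spiny neurons, were called as well. Dlx5 (1.66 ± 0.08) and Dlx6 (2.74 ± 0.08) were called higher, while the related Dlx2 (0.09 ± 0.08) and Dlx1 (-0.77 ± 0.10) were not called.

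Of 29 cortical factors 15 were lower in striatum, 4 higher and 10 not called, with a median of -1.04; without striatum replicates 3, 5 and 6, 14 were lower. Neurod1, Bhlhe22 and Fezf2, factors of pyramidal neurons, had log2 differences of -2.52 ± 0.15, -2.10 ± 0.18 and -1.98 ± 0.10. Mef2c, an activity-dependent factor, ran from 199 to 297 CPM in striatum and from 742 to 1016 CPM in prefrontal cortex (-1.83 ± 0.07). The 4 members of the list that were higher in striatum were Nr4a2 (2.05 ± 0.23), an orphan nuclear receptor of the claustrum and deep layers, Lmo3 (1.37 ± 0.05), Tle4 (1.11 ± 0.05) and Pou3f1 (1.04 ± 0.07). Nr4a2 ran from 37.2 to 64.3 CPM in striatum and from 6.26 to 26.4 CPM in prefrontal cortex, and the groups did not overlap.

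Of 20 excitatory neuron genes 12 were lower in striatum and 0 higher, with a median of -1.13. The vesicular glutamate transporter Slc17a7 had 360, 550 and 714 CPM as lowest, median and highest level in striatum and 1556, 1630 and 1808 CPM in prefrontal cortex (log2 difference -1.56 ± 0.09; edgeR adjusted p = 1.20e-12). The groups were apart, but the striatal level was well above 0 in every library. The Nogo receptor Rtn4r (-2.06 ± 0.08), the peptide Cck (-2.07 ± 0.09) and the neurite protein Nrn1 (-2.24 ± 0.12) were lower in striatum by more. Camk2a, the kinase abundant at excitatory synapses, just missed the 2-fold limit, with 1442 to 2084 CPM in striatum against 3043 to 3970 CPM in prefrontal cortex; it was called with the replicate block and under RLE scaling, DESeq2 and voom. Its partner subunit Camk2b lay on the other side, at 0.56 ± 0.04, and was not called.

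Layer markers did not move together. Of 14 upper-layer genes 5 were lower in striatum, 1 higher and 8 not called, with a median of -0.61. Next to Cux2 and Lamp5 the members called lower were Stard8 (-1.89 ± 0.05), Nectin3 (-1.68 ± 0.08) and Rasgrf2 (50.6 to 92.8 CPM in striatum against 150 to 227 CPM in prefrontal cortex). Of 20 deep-layer genes 8 were higher, 3 lower and 9 not called, with a median of -0.03. Those higher in striatum were Foxp2, Syt6 (2.63 ± 0.09), Nxph4 (2.21 ± 0.17), the calmodulin regulator Pcp4 (2.09 ± 0.08), the serotonin receptor Htr2c (1.75 ± 0.07), Ctgf (1.41 ± 0.15), Cplx3 (1.24 ± 0.09) and Tle4. Those lower were Fezf2, Tbr1 (-1.07 ± 0.09) and Tshz2 (-1.09 ± 0.11).

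**Figure D3:**
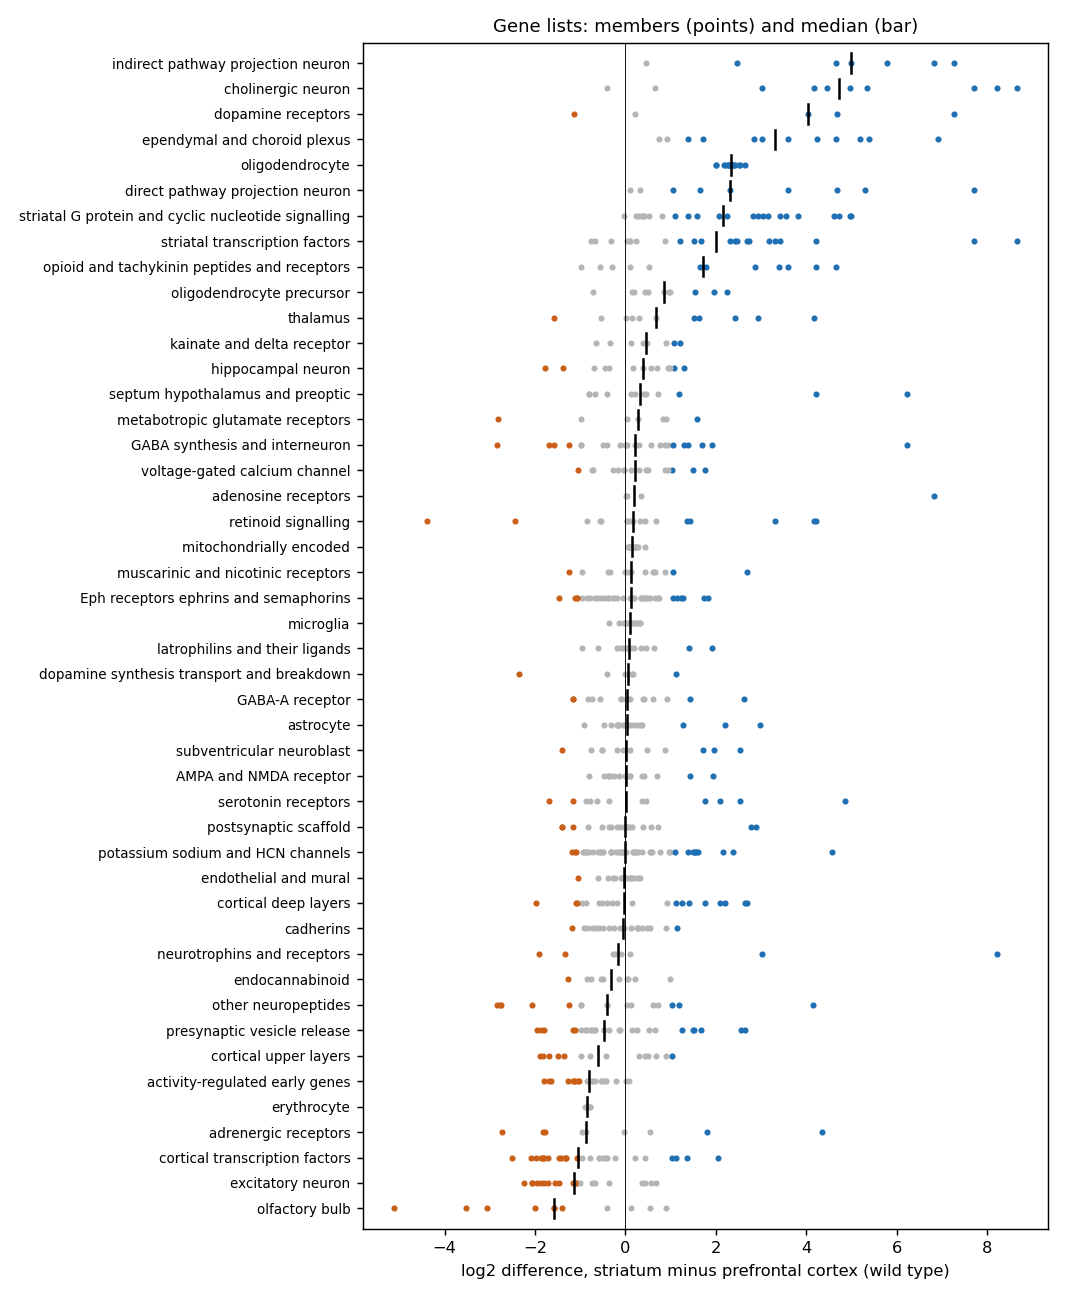
Log2 differences, striatum minus prefrontal cortex, of the tested members of 46 gene lists, ordered by their median (black bar). Blue points are called higher in striatum, orange lower and grey not called; the olfactory bulb, excitatory neuron and cortical factor lists have the lowest medians and the indirect pathway, cholinergic and dopamine receptor lists the highest.

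Genes of cholinergic neurons were higher in striatum. Of 10 genes 8 were higher in striatum, 0 lower and 2 not called, with a median of 4.72. Slc5a7, the choline transporter, ran from 34.5 to 44.9 CPM in striatum and from 0.796 to 1.87 CPM in prefrontal cortex (log2 difference 4.96 ± 0.10). The vesicular acetylcholine transporter Slc18a3 overlaps Chat on the same strand, so the reads of these genes cannot be fully told apart. Lhx8 and Isl1, factors that specify these neurons in the ventral forebrain, had few reads in prefrontal cortex, as did Nkx2-1, a ventral forebrain factor of the interneuron list. Lhx8 had 2462 reads in sum over the striatum libraries and 5 over the prefrontal ones, with 4.78 to 7.37 CPM in striatum (log2 difference 8.66 ± 0.20). Isl1 had 4120 and 19 reads (7.72 ± 0.23) and Nkx2-1 1988 and 26 (6.23 ± 0.20). With so few prefrontal reads, the errors given for these differences are approximate and may be too small. Acetylcholinesterase, Ache, was present in both regions and not called (0.66 ± 0.04). Of 13 muscarinic and nicotinic receptor genes 2 were higher, 1 lower and 10 not called. Chrm4, the inhibitory M4 receptor of direct pathway neurons, differed by 1.06 ± 0.10, whereas Chrm1 (-0.35 ± 0.04) and Chrnb2 (0.13 ± 0.03) did not reach 2-fold.

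Interneuron markers diverged by class. GABA synthesis and release genes were higher in striatum, Gad2 by 1.39 ± 0.03 and the vesicular transporter Slc32a1 by 1.69 ± 0.04. Pvalb (-0.02 ± 0.19; edgeR adjusted p = 0.934) and Sst (0.03 ± 0.05; adjusted p = 0.618, edgeR), which mark the parvalbumin and somatostatin classes, had overlapping levels. Pvalb ran from 15.1 to 49.2 CPM in striatum and from 22.6 to 34.4 CPM in prefrontal cortex. Without striatum replicates 3, 5 and 6 its log2 difference was -0.45 ± 0.09 (edgeR adjusted p = 0.000219), so the value near 0 rests on those libraries. Sst ran from 140 to 176 CPM and from 138 to 197 CPM. Vip (chromosome 10, 5639218 to 5647617), the peptide of disinhibitory cortical interneurons, had 2.61, 7.47 and 9.59 CPM as lowest, median and highest level in striatum and 42.1, 48.9 and 61.5 CPM in prefrontal cortex (-2.83 ± 0.15; edgeR adjusted p = 3.14e-13). The ionotropic serotonin receptor Htr3a, found in the same cells, differed by -1.69 ± 0.13. In all, 6 of 25 genes of the list were higher in striatum, 4 lower and 15 not called.

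Of 12 opioid and tachykinin genes 7 were higher in striatum and 0 lower, with a median of 1.72; with the replicate block 7 were higher and 1 lower. Besides the precursors named above they were the mu and kappa opioid receptors Oprm1 (1.79 ± 0.08) and Oprk1 (2.86 ± 0.07) and the tachykinin receptors Tacr1 (4.22 ± 0.09) and Tacr3 (3.39 ± 0.15). The delta receptor Oprd1 was not called (0.53 ± 0.08). Of 16 other peptides 3 were higher and 5 lower. Neurotensin, Nts, differed by 4.16 ± 0.15, while Adcyap1 (-2.76 ± 0.17), the precursor of PACAP, the bombesin-like peptide Grp (-2.78 ± 0.18) and Bdnf of the neurotrophin list (-1.90 ± 0.14) were lower in striatum. Bdnf ran from 6.65 to 17.1 CPM in striatum and from 31.0 to 61.6 CPM in prefrontal cortex.

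Monoamine receptors went both ways within a family. Of 5 dopamine receptors 3 were higher in striatum, among them Drd3 (4.03 ± 0.25), on 480 reads in sum against 29. Drd5 was not called (0.22 ± 0.10) and Drd4 was lower (-1.14 ± 0.28), on 87 against 198 reads. Of 12 serotonin receptors 4 were higher and 2 lower. Htr1d ran from 12.0 to 18.1 CPM in striatum and from 0.161 to 0.772 CPM in prefrontal cortex (4.86 ± 0.14), and Htr1b, Htr4 and Htr2c were called higher as well. Of 9 adrenergic receptors 2 were higher, 3 lower and 4 not called, with a median of -0.87. The alpha-2 receptors Adra2b (4.35 ± 0.18) and Adra2c (1.81 ± 0.07) were higher in striatum. The alpha-1 receptors Adra1b (-1.82 ± 0.13) and Adra1d (-2.74 ± 0.11) and the beta receptor Adrb3 (-1.79 ± 0.14) were lower. Adra1d ran from 4.02 to 8.49 CPM in striatum and from 33.0 to 46.6 CPM in prefrontal cortex. The cannabinoid receptor Cnr1 fell just short of the limit at 0.98 ± 0.05, and the anandamide-degrading enzyme Faah was the only member of the 10-gene endocannabinoid list that was called (-1.28 ± 0.06). Without striatum replicates 3, 5 and 6, 1 member was called higher and 1 lower.

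AMPA and NMDA receptor genes were called at a share near that of all tested genes, 11%. Of 16 such genes and auxiliary subunits 2 were called, both higher, namely Cacng4 (1.94 ± 0.05) and the sparse Grin3b (1.43 ± 0.20). Without a minimum fold 5 passed the adjusted p as higher and 7 as lower. The core subunits Gria2 (0.09 ± 0.06), Grin1 (0.03 ± 0.03) and Grin2b (0.09 ± 0.09) were not called. Among 7 metabotropic receptors the presynaptic Grm2 was lower and Grm4 higher. Grm2 had 6.50, 14.5 and 21.2 CPM as lowest, median and highest level in striatum and 88.1, 97.4 and 111 CPM in prefrontal cortex (-2.82 ± 0.15; edgeR adjusted p = 8.43e-13). Grm4 differed by 1.57 ± 0.05. Of 16 GABA receptor genes tested 2 were higher and 2 lower, the latter being Gabra3 (-1.17 ± 0.07) and Gabbr2 (-1.17 ± 0.07).

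Ion channel and release genes had called members on both sides: 13 of 46 channel genes and 11 of 28 presynaptic genes were called, where 11% of all tested genes were. Of 46 potassium, sodium and HCN channel genes 10 were higher and 3 lower (11 and 4 without striatum replicates 3, 5 and 6), with a median of -0.02. The sodium channel subunit Scn4b, which produces resurgent current, ran from 1324 to 2033 CPM in striatum and from 56.0 to 74.5 CPM in prefrontal cortex (log2 difference 4.57 ± 0.07). The potassium channel subunits Kcna5 (2.39 ± 0.08) and Kcnab1 (2.15 ± 0.05) and the inward rectifier Kcnj2 (1.60 ± 0.09) were higher as well, while Kcnh7 (-1.17 ± 0.10), Kcnj3 (-1.12 ± 0.08) and Kcnj9 (-1.10 ± 0.05) were lower. Of 28 presynaptic genes 6 were higher and 5 lower (6 and 6 without the 3 libraries), and related genes took opposite sides. Doc2b differed by 2.55 ± 0.10 and Doc2a by -1.96 ± 0.12, and Sv2c by 1.67 ± 0.04 and Sv2b by -1.11 ± 0.06. Stx1a, a SNARE protein, was lower (-1.88 ± 0.08). A list of 14 genes held latrophilins, the family of Adgrl3, with their ligands and related genes. Its 2 called members are near the share of all tested genes, 11%. Tenm3 (138 to 162 CPM in striatum against 37.7 to 72.2 CPM in prefrontal cortex) and the netrin receptor Unc5b (1.91 ± 0.10) were higher in striatum. The other 12 were not called.

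Retinoid genes lay on both sides. Of 17 tested 5 were higher in striatum and 2 lower. Higher were Rarb, Rxrg, the binding protein Crabp1 (4.18 ± 0.14), the synthesising enzyme Aldh1a1 (1.44 ± 0.10) and the degrading enzyme Cyp26b1 (1.37 ± 0.30). The synthesising enzymes Aldh1a3 (-4.39 ± 0.14) and Aldh1a2 (-2.45 ± 0.21) were lower. Aldh1a3 had 0.0923 to 0.371 CPM in striatum, 105 reads in sum, and 4.49 to 6.42 CPM in prefrontal cortex, 2292 reads in sum. Aldh1a2 is also an enzyme of the meninges.

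Among all called genes with at least 5 CPM in the higher region, the 12 with the largest log2 difference upwards included Six3, Lhx8, Isl1, Gpx6 (7.66 ± 0.40), Ptpn7 (7.33 ± 0.14), Drd2, Serpina9 (7.16 ± 0.15), Sh3rf2 (6.94 ± 0.15), Ttr (6.92 ± 0.95), Adora2a and Lrrc10b (6.50 ± 0.10). Gpx6, a glutathione peroxidase, ranged widely in striatum, from 2.80 to 14.1 CPM. Ttr encodes transthyretin, the most abundant product of the choroid plexus, and ran from 15.9 to 1190 CPM in striatum and from 0.271 to 15.9 CPM in prefrontal cortex. Without striatum replicates 3, 5 and 6 its log2 difference was 6.28 ± 0.96. It moved with the other choroid plexus genes, and their part in its difference was not tested. The 12 downwards were Prg4 (-4.83 ± 0.40), Aldh1a3, Mylk3 (-4.31 ± 0.13), Tnnc1 (-3.43 ± 0.14), Hkdc1 (-3.36 ± 0.13), 1110002E22Rik (-3.17 ± 0.18), Slc22a6 (-3.17 ± 0.20), Doc2g (-3.07 ± 0.40), Glt8d2 (-3.06 ± 0.11), Clec18a (-2.89 ± 0.12), Vip and Grm2. Mylk3 and Tnnc1 encode a myosin light chain kinase and a troponin C best known from heart. Mylk3 ran from 0.282 to 0.764 CPM in striatum and from 8.05 to 10.8 CPM in prefrontal cortex, and Tnnc1 from 1.08 to 3.10 CPM and from 17.4 to 27.6 CPM. Doc2g overlaps Nudt8 on the same strand, and its groups overlapped, with 1.33 to 1.88 CPM against 1.71 to 30.4 CPM.

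Activity-regulated early genes varied widely between libraries. Of 20 genes 9 were lower, 0 higher and 11 not called, with a median of -0.80. Fos had 3.99, 24.4 and 37.7 CPM as lowest, median and highest level in striatum and 10.8, 79.3 and 120 CPM in prefrontal cortex (log2 difference -1.64 ± 0.42; edgeR adjusted p = 0.00193). Arc, which acts at synapses, had 40.4, 235 and 302 CPM and 50.7, 548 and 727 CPM (-1.13 ± 0.41; adjusted p = 0.0191, edgeR). The groups overlapped for both genes, and each was lower in striatum than in prefrontal cortex in 10 of 10 pairs of equal replicate number. At least 16.2% of all tested genes share this count, since it follows wherever all striatum libraries lie below. With the replicate number as a block, 6 of the 20 genes were at least 2-fold lower. The block narrowed the errors: Fos was then -1.53 ± 0.14 (edgeR adjusted p = 1.09e-06), and 17 of the 20 genes passed the adjusted p alone, all lower. Unblocked, 13 of the 20 passed it, all lower, where 34.8% of all tested genes passed as lower and 71% either way. The share of all genes under the block was not counted. The block raised those with an unadjusted p below 0.05 (edgeR) from 11298 to 11792 of 15513. Arc (-0.96 ± 0.15; adjusted p = 1.36e-04, edgeR), Fosb and Dusp1 fell below the 2-fold limit under the block. The summed level of the list was lowest in replicate 10 in both regions, at 937.1 CPM in striatum and 952.2 CPM in prefrontal cortex, against medians of 1584 and 2504 CPM.

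Early genes are textbook targets of the transcription factor CREB, which binds the cyclic AMP response element TGACGTCA or its short form TGACG. The 250 bases upstream of the transcription start were searched on both strands for the 11101 tested genes with a RefSeq promoter (GRCm38.p6) whose start lies within 5000 bases of the deposited gene's. The short form, which is contained in the long one, was found in 25.8% of all these promoters, in 17.5% of those of genes called higher, in 18.6% of those called lower, and in 11 of 15 promoters of the early gene list. The median GC content was 66.4% in the early gene promoters and 59.6% in all. A match is a run of letters and not a measured site. Promoters of 4 called early genes are shown, with Vip as another gene lower in striatum and Gpr6 as one higher. Capitals mark TGACG on either strand and the TATA box letters TATAAA. The intervals are chr12:85473640-85473889 (plus strand) for Fos, chr19:4989972-4990221 (minus) for Npas4, chr7:19310046-19310295 (minus) for Fosb, chr1:134079156-134079405 (minus) for Btg2, chr10:5638968-5639217 (plus) for Vip and chr10:41072291-41072540 (minus) for Gpr6.
Fos: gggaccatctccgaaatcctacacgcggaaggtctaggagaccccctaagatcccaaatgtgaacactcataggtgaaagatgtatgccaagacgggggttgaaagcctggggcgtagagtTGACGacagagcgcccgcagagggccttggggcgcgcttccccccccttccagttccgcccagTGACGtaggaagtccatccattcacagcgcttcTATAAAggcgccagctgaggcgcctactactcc
Npas4: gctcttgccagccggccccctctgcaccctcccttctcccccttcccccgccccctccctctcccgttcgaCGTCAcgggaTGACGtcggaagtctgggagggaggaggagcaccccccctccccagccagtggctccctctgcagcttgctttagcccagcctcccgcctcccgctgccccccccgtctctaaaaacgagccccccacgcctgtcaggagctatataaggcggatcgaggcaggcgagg
Fosb: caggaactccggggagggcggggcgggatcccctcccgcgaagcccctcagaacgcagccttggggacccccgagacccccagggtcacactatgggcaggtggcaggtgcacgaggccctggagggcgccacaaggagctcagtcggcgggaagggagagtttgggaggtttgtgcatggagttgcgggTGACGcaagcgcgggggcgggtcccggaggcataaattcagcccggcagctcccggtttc
Btg2: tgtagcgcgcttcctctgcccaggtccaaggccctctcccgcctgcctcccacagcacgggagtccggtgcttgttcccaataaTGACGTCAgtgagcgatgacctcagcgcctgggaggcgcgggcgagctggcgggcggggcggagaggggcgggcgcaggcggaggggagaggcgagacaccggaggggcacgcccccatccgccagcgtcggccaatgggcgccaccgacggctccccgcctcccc
Vip: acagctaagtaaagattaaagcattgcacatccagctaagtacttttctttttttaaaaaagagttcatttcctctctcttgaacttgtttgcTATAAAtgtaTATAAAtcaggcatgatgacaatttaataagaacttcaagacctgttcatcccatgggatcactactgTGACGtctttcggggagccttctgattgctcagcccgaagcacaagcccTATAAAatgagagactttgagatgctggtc
Gpr6: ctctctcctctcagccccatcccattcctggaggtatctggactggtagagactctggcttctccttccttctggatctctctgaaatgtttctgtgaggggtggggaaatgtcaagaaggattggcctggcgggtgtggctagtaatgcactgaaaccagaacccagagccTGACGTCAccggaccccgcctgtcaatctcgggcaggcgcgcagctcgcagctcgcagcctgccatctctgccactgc
Fos carries the short form 129 and 66 bases before the start, with TATAAA at 33. Btg2 and Gpr6 carry the full palindrome, which counts on both strands. Npas4 (-1.68 ± 0.32), a neuron-specific early factor, and Btg2 (-1.26 ± 0.32) were lower in striatum and Gpr6 higher, so the same letters stand before genes on both sides of the contrast.

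Myelin and oligodendrocyte genes rose together. All 16 were called higher in striatum, where 6.52% of all tested genes were. Their log2 differences ran from 2.00 to 2.65, with a median of 2.33. None overlapped between regions, as was the case for 33.7% of all tested genes. Mbp, myelin basic protein, had 2127, 2956 and 4118 CPM as lowest, median and highest level in striatum and 489, 639 and 687 CPM in prefrontal cortex (2.27 ± 0.11; edgeR adjusted p = 2.80e-14). The summed level varied from 6365 to 12340 CPM over the striatum libraries and from 1460 to 1913 CPM over the prefrontal ones. Its highest striatal values, 12340, 10820 and 9997 CPM, were those of replicates 5, 6 and 3, the libraries high for thalamus markers. Without them all 16 genes were still called higher, with a median of 2.17. Precursor markers moved less: 3 of 11 were higher, Enpp6 (2.24 ± 0.10), Bcas1 (1.96 ± 0.10) and Sox10 (1.54 ± 0.08), all of which are also expressed by cells that begin to myelinate, while Pdgfra (0.19 ± 0.04) and Cspg4 (0.15 ± 0.05) were not called. The median of the 11 was 0.84. Without a minimum fold 10 passed the adjusted p as higher and 1 as lower, where 36.1% of all tested genes passed as higher.

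Lists of other glia and vessels had called members at a share near or below that of all tested genes, 11%. Of 15 microglial features 0 were called, Cx3cr1 for example at -0.04 ± 0.03. Of 22 astrocyte genes 3 were higher, Thbs4 (2.98 ± 0.15), the angiotensin precursor Agt (2.19 ± 0.15) and the bicarbonate transporter Slc4a4 (1.28 ± 0.07), while the glutamate transporter Slc1a2 (-0.05 ± 0.05) was not called; without striatum replicates 3, 5 and 6, 1 of the list was also lower. Of 16 endothelial and mural genes 1 was lower, Anpep (-1.04 ± 0.10), which was at -0.98 and below the 2-fold limit without replicate 1. Of 5 erythrocyte genes 0 were called, Hba-a1 for example at -0.86 ± 0.16, and 1 was called lower without the 3 libraries. Without a minimum fold all 5 passed the adjusted p as lower, at -0.89 to -0.78, where 34.8% of all tested genes did. All 13 mitochondrially encoded genes were uncalled.

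Genes of neighbouring tissues differed too. Of 12 tested genes of ependyma and choroid plexus 10 were higher in striatum, among them Foxj1 (1.72 ± 0.16), the master factor of motile cilia. Of 11 olfactory bulb genes 7 were lower in striatum, led by Eomes (-5.12 ± 0.56), a factor of mitral and tufted cells, which ran from 0.230 to 9.69 CPM in prefrontal cortex and overlapped the striatal range of 0.0256 to 0.280 CPM. Without striatum replicates 3, 5 and 6, 1 gene of this list was called higher. In KO 1 gene of the list was called higher and 1 lower. Doc2g was at -3.07 in WT and -1.05 in KO, and Sp8 at -1.41 and -0.12; neither interaction passed (edgeR adjusted p = 0.772 for both), and Eomes was not tested in KO alone. Of 11 thalamus genes 5 were higher and 1 lower, and without the same 3 libraries 3 were higher and 2 lower. Of 12 neuroblast genes 3 were higher, 1 lower and 8 not called, with a median of 0.01. Those higher were the cell cycle genes Mki67 (1.72 ± 0.11) and Top2a (1.96 ± 0.17) and Igfbpl1 (2.54 ± 0.24). The summed level of this list was lower in striatum, at 342.2 to 404.8 CPM against 473 to 550 CPM in prefrontal cortex. A list of 16 leptomeningeal genes was added after several of its values had been seen. Of these 13 were lower in striatum and 0 higher (15 and 0 without the 3 libraries), among them Prg4, Slc22a6, Fmod (-2.53 ± 0.17) and Slc47a1 (-4.43 ± 0.27). The part of dissection borders in these differences was not tested.

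**Figure D4:**
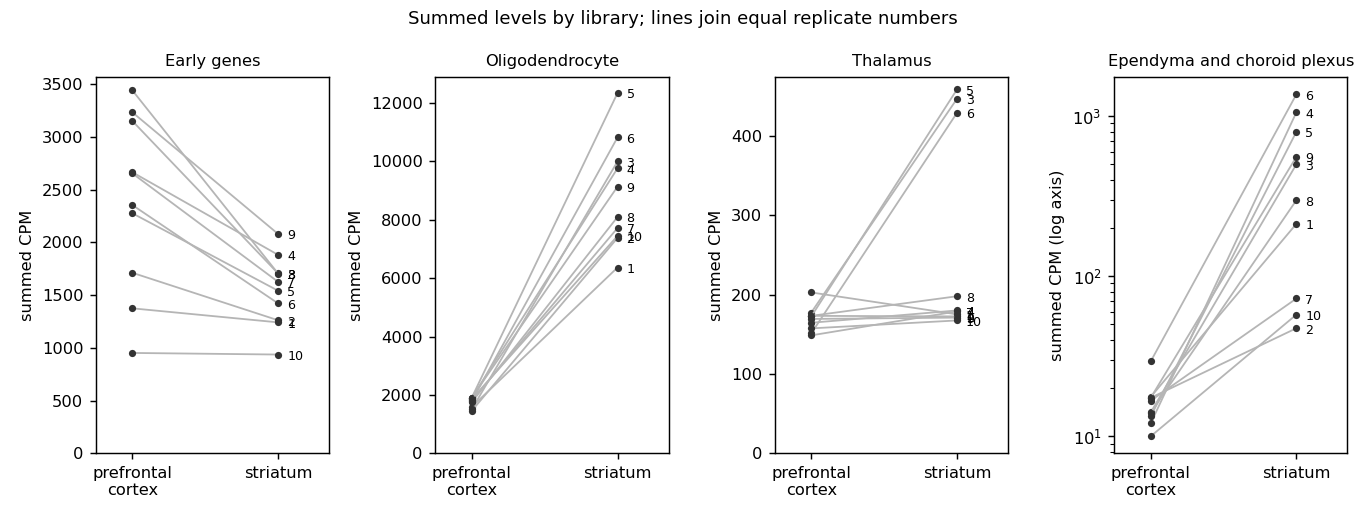
Summed CPM of 4 gene lists in each WT library, prefrontal cortex on the left and striatum on the right of each panel, with lines joining libraries of equal replicate number, which is printed at the right; the last panel has a log axis. Early genes are low in both regions of replicate 10, the oligodendrocyte sums do not overlap, and striatum replicates 3, 5 and 6 stand above the rest in the thalamus panel.

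The same contrast was made in the KO mice, whose libraries are separate. Adgrl3 was at 41.8 ± 5.26 CPM (SD, n = 10) in KO striatum and 35.2 ± 8.93 CPM in KO prefrontal cortex, against 126 to 176 CPM over the 20 WT libraries. Of 15484 genes 1848 (11.9%) were called, 1108 higher and 740 lower in striatum. Of the 1012 genes called higher in WT, 936 (92.5%) were also called higher in KO, which is 84.5% of all those called higher there. Of the 688 called lower, 591 (85.9%) were called lower in KO, which is 79.9% of those called lower there. The sign was opposite in 0 of the former and 2 of the latter. Drd2 was at 7.27 ± 0.12 in WT and 7.29 ± 0.12 in KO, Six3 at 8.67 ± 0.14 and 8.75 ± 0.20, and Mbp at 2.27 ± 0.11 and 2.16 ± 0.12. Across 15398 genes tested in both genotypes the log2 differences had a Pearson r of 0.978, given as a description, since genes are not independent replicates.

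No gene passed the test of whether the regional difference itself differed between genotypes. Of 15897 genes 0 had an adjusted p below 0.05 for the interaction (edgeR quasi-likelihood), and 685 (4.31%) had an unadjusted p below 0.05. DESeq2 called 7 genes, a fit on all 60 libraries 4, and edgeR 16 without replicate 7 and 1 each without replicate 2 or 5. The smallest p belonged to Trh, the thyrotropin-releasing hormone precursor, whose log2 difference was 0.13 ± 0.31 in WT and 2.32 ± 0.32 in KO (interaction adjusted p = 0.266, edgeR). The dopamine transporter Slc6a3 had -2.36 ± 0.70 in WT and 1.43 ± 0.47 in KO, and is the gene called in opposite directions. With the replicate block it was -1.65 ± 0.59 in WT. Its WT call was lost with voom (-1.36; limma adjusted p = 0.051) and with the block on the 7 pairs without striatum replicates 3, 5 and 6 (-0.89; edgeR adjusted p = 0.0954). Its WT prefrontal level rested on replicate 5, with 9.02 CPM against 0.102 to 1.11 CPM in the other 9.

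**Figure D5:**
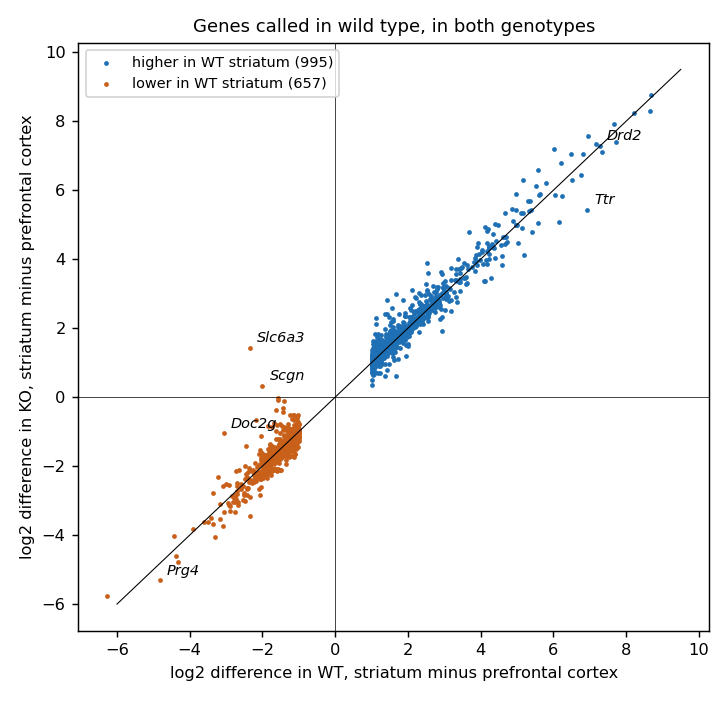
Log2 difference, striatum minus prefrontal cortex, in WT (x axis) and in KO (y axis) for the genes called in WT and tested in KO, blue for higher and orange for lower in WT striatum. Most points lie near the diagonal, and Slc6a3 and Scgn lie in the quadrant of opposite signs.

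The WT hippocampus gives a scale for these levels, although its libraries were not tested here. Of the 1012 genes higher in striatum, 412 had a mean hippocampal level between the regions and nearer to prefrontal cortex, 259 nearer to striatum, 165 above both and 176 below both. Drd2 was at 4.61 ± 3.95 CPM (SD, n = 10) and Mbp at 1347 ± 242 CPM in hippocampus. Of the 688 genes lower in striatum, 162 were between and nearer to prefrontal cortex, 239 between and nearer to striatum, 113 above both and 174 below both. Grm2 was at 62.5 ± 11.6 CPM and Mef2c at 170 ± 16.4 CPM, so genes low in striatum were near the prefrontal level in hippocampus in some cases and not in others.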

How the data were processed

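RNA-seq libraries of 10 striata and 10 prefrontal cortices of WT mice were compared, with the matching 20 KO libraries for the genotype contrasts. The authors deposited a table of raw counts per gene for 60 libraries. Per the submitters' processing notes, tools used include FastQC 0.11.4, cutadapt 1.16, STAR 2.5.2b, bedtools and DESeq2 1.16.1. Features, per the file headers, are protein-coding genes from start to end, so intronic reads are counted and unspliced RNA adds to a gene's level; how strand was treated in counting is not stated. Coordinates are those of the table (GRCm38, per the submitters' processing notes).

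Counts were tested with edgeR 4.0.16 in R 4.3.3 (TMM scaling, filterByExpr, quasi-likelihood test, Benjamini-Hochberg adjustment over all genes tested). A call needs an adjusted p below 0.05 and at least a 2-fold difference. The SE of a log2 difference is its absolute value divided by the square root of the quasi-likelihood F statistic. It is an approximation and may be too small for genes with few reads in a region. Alternatives used limma 3.58.1, DESeq2 1.42.0, other filters and scalings, and each replicate left out. The procedure was tested on simulated data: of 100 genes changed by 1.5 on the log2 scale among 15469, 99% were called in the regional contrast. For the interaction, 64% of 100 genes changed by 0.5 were called and 88.9% of 99 changed by 1, with 3 unchanged genes called. Interactions of that size can thus be missed. The simulated counts were drawn independently for each library, so they held no pairing by replicate number. Library totals were 39784183 to 50566119 reads; a gene's read total sets its counting precision.

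Replicate numbers come from the titles. Deviations from the group means of equally numbered striatum and prefrontal libraries correlated at 0.206 to 0.449 in WT and 0.185 to 0.458 in KO, over 0.1 in 10 of 10 pairs of each, so the numbers were taken to pair the libraries. No 2 libraries of a region agreed within sampling noise (chi-square per degree of freedom of at least 5.57).

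Named genes are Adgrl3, the 4 markers, the 12 called genes with the largest difference in each direction with at least 5 CPM in the higher region, and members of the gene lists. Slc6a3 and Trh and the genes of the closing section were chosen after their values were seen. The members and lists were chosen with earlier results of these data known, and the leptomeninges list after several of its values were seen. Some genes are not reported here. Promoter sequences are from RefSeq, GRCm38.p6.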

Additional observations from a re-analysis of the deposited data

Results flagged for a closer look

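A library was listed where its gap to the nearest other library of its region exceeded the limit of Dixon's test for 10 values, which chance alone passes in about 1 in 20 groups. Of 362 groups of values (the named genes and 7 list sums in both regions), 34 passed it (9.39%). Values are CPM.

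Prefrontal replicate 6 had the largest number. It was high for Gng7 (101), Pdyn (39.6), Pvalb (34.4), Rtn4r (133), Sst (197), Tle4 (57.8), Ttr (15.9), Vip (61.5) and the ependyma and choroid plexus sum (29.4), and low for Oprd1 (13.5) and Rasgrf2 (150). Striatum replicate 9 was high for the signalling genes Adcy5 (1747), Gnal (1059), Pde10a (2195) and Prkcb (1981), for Drd1 (317) and Tacr1 (41.1), and for Cacng4 (151), Grin3b (0.461) and Pou3f1 (59). Without replicate 9, Pou3f1 fell below the 2-fold limit, at a log2 difference of 0.99.

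Replicate 1 was high for Camk2a in both regions, at 2084 in striatum and 3970 in prefrontal cortex. In striatum it was also high for Fmod (6.82) and Lmo3 (208), and in prefrontal cortex for the thalamus sum (203). Slc6a3 was high in prefrontal replicate 5 (9.02) and in striatum replicate 7 (0.524). Prefrontal replicate 5 was further high for Agt (6.11) and low for Adra1d (33). The remaining cases were Bhlhe22 (40.3) and Kcnj2 (26.5) in prefrontal replicate 2, Adra1b, low in replicate 8 (31.3), Doc2a in replicate 10 (94.6), and the leptomeningeal sum in striatum replicate 6 (418).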

How the results depend on the processing

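The WT count of 1700 calls stayed within 1.5 times under other scalings, tools and filters, from 1308 with a minimum of 1 CPM in 10 libraries to 2515 with no filter. It was 11013 without a minimum fold and 1131 with glmTreat testing against 2-fold (KO: 10806 and 1196, against 1848). Leaving out each replicate gave 1654 to 1748 calls in WT, 1812 to 1907 in KO and 0 to 16 for the interaction, the 16 without replicate 7. The interaction had 7 calls with DESeq2 and 4 in the fit on all 60 libraries; the cause was not tested. Without striatum replicates 3, 5 and 6, chosen after seeing the data, 1703 WT genes were called, 1584 of them among the 1700.

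With the replicate block 1700 WT genes were called, 1682 of them shared with the unblocked fit, 1839 in KO and 0 for the interaction, and the median standard error fell from 0.0538 to 0.0447; of the genes named, Arc, Fosb and Dusp1 lost their call under the block and Camk2a gained one, and the lists of excitatory neuron, upper-layer and interneuron genes had 13, 6 and 5 members lower. Differences near 0 changed sign: Pvalb ranged from -0.124 to 0.0385 with a replicate left out and was -0.45 (edgeR adjusted p = 0.000219) without striatum replicates 3, 5 and 6, where Trh was -0.055. Counts under the filter limit what can be said of sparse genes.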

Other observations

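Some genes differed between replicate numbers in both regions alike. Wdfy1, an endosomal adaptor protein, was lowest in replicate 8 in both regions, at 17.8 and 13.7 CPM. Entpd4, a Golgi nucleotidase, was at 114, 114 and 114 CPM in striatum replicates 4, 7 and 10, against 78.0 to 84.8 CPM in the other 7, and at 112, 111 and 108 CPM in the same prefrontal replicates, against 71.5 to 79.3 CPM. Fcrls, a microglial receptor, was at 4.18 and 5.43 CPM in striatum replicates 5 and 10 and at 8.02 and 8.72 CPM in the prefrontal ones, below the other libraries of each region.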
